A study of Mus musculus with 6 samples.

Results

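The genes described here encode the mitochondrial respiratory chain, its mobile carrier cytochrome c and the ATP synthase, together with the assembly and coupling factors that share their symbols. They were taken by symbol, as every gene starting with Nduf, Uqcr, Atp5, Cox4 to Cox8, mt-Nd, mt-Co, mt-Cytb or mt-Atp and the genes Sdha to Sdhd, Cyc1 and Cycs, with symbols containing -ps left out. This gave 104 of the 26096 genes in the deposited table. Of these, 91 are nuclear genes (81 for subunits or carriers and 10 for assembly or coupling factors) and 13 are encoded by the mitochondrial genome. Wild-type mouse microglia, a macrophage type that lives in the brain, were compared after culture with medium from bone marrow-derived macrophages (BMDMs). The BMDMs had undergone ferroptosis, an iron-dependent death by lipid peroxidation, for 3 samples, and were normal for the other 3 samples. The sources used here do not give what induced ferroptosis, how long the medium was applied or where the microglia came from.

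The respiratory chain passes electrons from NADH (complex I) and succinate (complex II) to ubiquinone, on to complex III and cytochrome c, and then to oxygen at complex IV. Complexes I, III and IV pump protons, and the ATP synthase (complex V) lets them return while it makes ATP. Complexes I, III, IV and V combine subunits translated inside the mitochondrion with subunits imported from the cytosol, whereas complex II is built from nuclear-encoded subunits alone. Core subunits carry the redox centres or the catalytic work, and accessory subunits surround them. In macrophages and microglia, inflammatory activation is known to shift energy metabolism between this chain and glycolysis.

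Whole reads recovered from the deposited values numbered 39624311 to 41953603 per library with ferroptotic medium and 43419446 to 50557794 with normal medium. Levels below are normalized counts, which are reads divided by a size factor per library, and changes are log2 fold changes of ferroptotic over normal medium, with limma's standard error (SE). A gene is called higher or lower where its limma p-value, adjusted by the Benjamini-Hochberg method over 15597 tested genes, is below 0.05. No label says that the samples were separate cultures, so the p-values reflect only how far these 6 samples spread. In bulk RNA, fewer cells of a type and less RNA per cell cannot be told apart. Among markers of the labelled cell type, Csf1r, the receptor for colony-stimulating factor 1, had 57734 to 59250 normalized counts with ferroptotic medium and 74146 to 77618 with normal medium, while P2ry12, Tmem119, Fcrls and Gpr34 were at or near 0 in both groups. The summed microglial list (4 of 8 genes in the table passing the filter on low counts) was 60811 to 62448 with ferroptotic medium and 77993 to 81344 with normal medium. Neutrophil markers (1 of 3 passing the filter) summed to 136 to 160 normalized counts with ferroptotic medium and 9.25 to 15.7 with normal medium, through S100a8, with Mpo and Elane at or near 0. Summed oligodendrocyte markers, mostly Mbp, were 6139 to 6351 with ferroptotic medium and 8821 to 9383 with normal medium, and astrocyte markers 1152 to 1218 with ferroptotic medium and 880 to 977 with normal medium, with Slc1a2 and Slc1a3 at or near 0. Of the 3 astrocyte markers tested, Gja1 was called higher (log2 fold change 0.49, limma adjusted p = 0.000544) and made up most of the sum, Aldh1l1 was called lower (-0.64, limma adjusted p = 0.0325) and Gfap was not called (-0.02). Markers of neurons (55.3 to 69.6 with ferroptotic medium and 5.88 to 16.6 with normal medium), fibroblasts (28.7 to 63.1 with ferroptotic medium and 8.81 to 11.8 with normal medium) and endothelial cells (388 to 405 with ferroptotic medium and 309 to 337 with normal medium) were low. For neurons 1 of 2 genes passed the filter, Tubb3, called higher (log2 fold change 3.46, limma adjusted p = 0.000166). For fibroblasts 1 of 4 passed, Dcn, also called higher (2.08, limma adjusted p = 0.00450). Of the 3 endothelial markers tested, Pecam1 was called higher (0.51, limma adjusted p = 0.00357), while Cdh5 (-0.43) and Kdr (0.70) were not called. The part of these markers in the results below was not tested.

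Of the 104 genes, 103 passed the filter on low counts, and 7 were called higher and 25 lower after ferroptotic medium. Across all tested genes 42.5% were called, 19.7% as higher and 22.8% as lower. Of the tested respiratory chain genes 31.1% were called, 6.80% as higher and 24.3% as lower. Their changes were small: the median size of a change, ignoring direction, was 0.127 on the log2 scale, against 0.288 for all tested genes. These sets were not matched for expression level, and all tested genes take in some near the filter of 10 normalized counts. Only 1 of the 32 called genes, Cox6a2, changed by 1.5-fold or more, a size that 17.0% of all tested genes reached with a call. The groups did not overlap for 10 genes on the higher side and 31 on the lower side, and among all tested genes they did not overlap for 53.7%, 25.6% on the higher side and 28.2% on the lower side. The count of higher calls was 11 without ferroptotic-medium replicate 1 and 4 without normal-medium replicate 3.

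Nuclear-encoded core subunits held 13 of the 25 lower calls. Of 21 tested, 13 were called lower and 0 higher, and for 14 of them the libraries with ferroptotic medium were all below those with normal medium. Their median log2 fold change was -0.15, against -0.01 for all tested genes. Of 57 accessory subunits tested, 9 were called lower and 5 higher, with a median of -0.08. The 13 mitochondrially encoded subunits gave 2 lower calls and 1 higher call with a median of 0.04, and the 10 assembly and coupling factors gave 1 call each way with a median of 0.01. The difference between core and accessory subunits was not tested, since the genes were chosen with results of these data known.

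**Figure D1:**
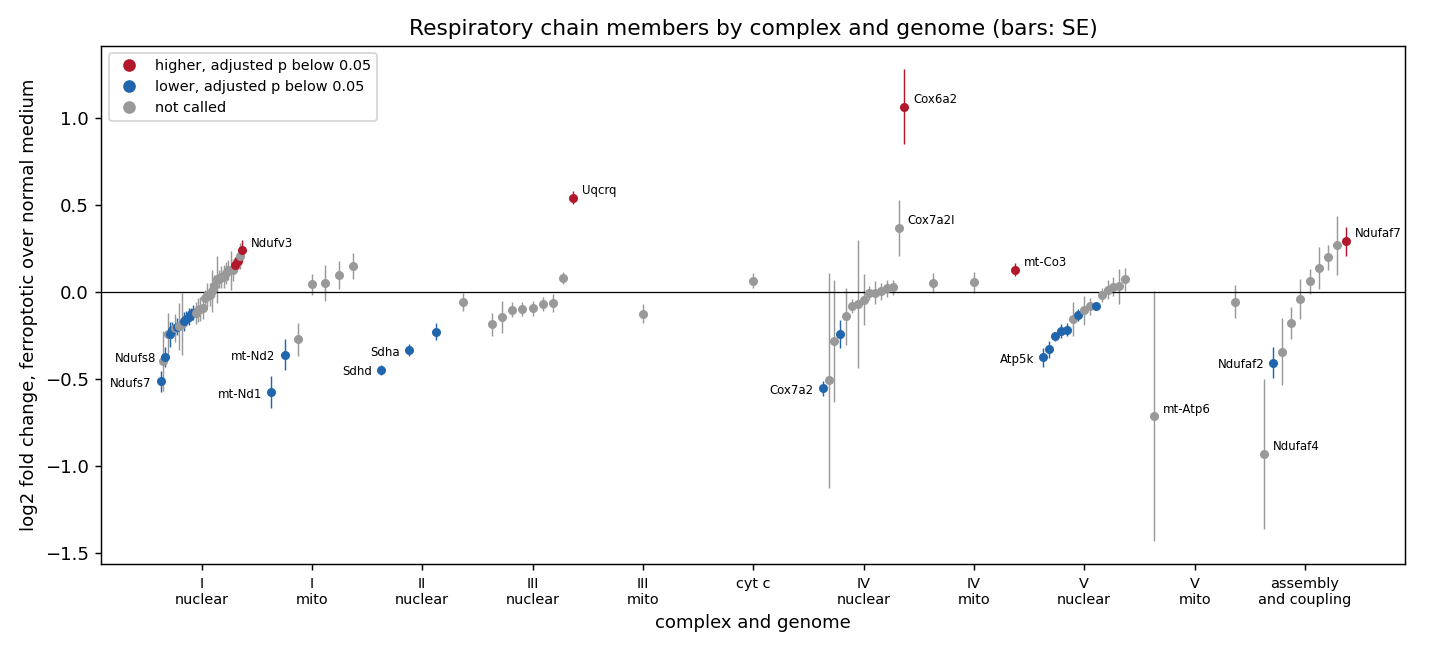
Each point is 1 tested gene, placed by complex and by the genome that encodes it, with its log2 fold change (ferroptotic over normal medium) on the y axis and limma's SE as the bar. Red points were called higher and blue points lower at an adjusted p below 0.05. The blue points gather in complexes I, II and V, Cox6a2 stands highest at 1.06, and the grey points with long bars (mt-Atp6, Ndufaf4 and a point of complex IV, Cox8a) are genes whose libraries lay far apart within a group.

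Promoter sequence was looked up for the nuclear genes in RefSeq (GRCm38.p6, from 250 bases before to 50 bases after the start of each gene), and 72 of 91 had an entry. Nuclear respiratory genes are known to share binding sites for the factors NRF1, GABPA (also called NRF2 alpha), ERR alpha and YY1, so 4 motifs were searched on both strands. A gene was counted where any of its promoters held the motif, with 32851 promoters for 27025 genes. The NRF1 motif GCGCANGCG was in 31.9% of the 72 genes with an entry and in 7.03% of all 27025 genes. The GABPA motif CCGGAAG was in 25% against 9.93%, the YY1 motif AANATGGC in 25% against 6.96%, and the ERR motif TCAAGGTCA in 2.78% against 0.466%. Of the 20 genes called lower that had an entry, 8 held the NRF1 motif, and of the 48 such genes with no call 15 did. None of the 4 such genes called higher held it. The GABPA motif was in 4 of the 20 genes called lower, 14 of the 48 with no call and 0 of the 4 called higher. For the YY1 motif these counts were 5, 12 and 1. The ERR motif was in 2 of the 72 genes, Sdhd and Atp5g3, and both were called lower. A match shows only that these letters are present.

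Of the genes described below, the promoters of 5 are shown, most of them chosen by fold change. Among nuclear subunits with an entry, Cox7a2, Ndufs7 and Sdhd had the strongest falls called and Ndufv3 the strongest rise called. Atp5g3 was added for its ERR motif. Capitals mark a motif as it reads on the strand of the gene.
Sdhd promoter, chr9:50603800-50604099, minus strand: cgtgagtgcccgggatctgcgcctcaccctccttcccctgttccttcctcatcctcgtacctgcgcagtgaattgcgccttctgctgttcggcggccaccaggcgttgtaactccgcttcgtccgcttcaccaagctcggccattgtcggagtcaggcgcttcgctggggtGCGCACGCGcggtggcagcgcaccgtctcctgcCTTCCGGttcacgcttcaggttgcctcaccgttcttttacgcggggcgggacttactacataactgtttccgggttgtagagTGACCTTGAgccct
Atp5g3 promoter, chr2:73911277-73911576, minus strand: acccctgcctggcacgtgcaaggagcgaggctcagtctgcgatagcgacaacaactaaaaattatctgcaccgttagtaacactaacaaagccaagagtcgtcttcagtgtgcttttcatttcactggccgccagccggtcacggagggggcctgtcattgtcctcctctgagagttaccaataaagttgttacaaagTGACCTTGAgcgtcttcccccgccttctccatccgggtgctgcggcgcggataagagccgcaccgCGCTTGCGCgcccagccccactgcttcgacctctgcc
Ndufs7 promoter, chr10:80249199-80249498, plus strand: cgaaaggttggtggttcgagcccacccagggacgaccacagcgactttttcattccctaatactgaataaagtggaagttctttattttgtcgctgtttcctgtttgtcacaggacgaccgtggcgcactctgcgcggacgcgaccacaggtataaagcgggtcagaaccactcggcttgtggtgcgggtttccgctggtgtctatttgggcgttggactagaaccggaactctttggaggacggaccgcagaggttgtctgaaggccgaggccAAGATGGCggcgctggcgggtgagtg
Cox7a2 promoter, chr9:79759804-79760103, minus strand: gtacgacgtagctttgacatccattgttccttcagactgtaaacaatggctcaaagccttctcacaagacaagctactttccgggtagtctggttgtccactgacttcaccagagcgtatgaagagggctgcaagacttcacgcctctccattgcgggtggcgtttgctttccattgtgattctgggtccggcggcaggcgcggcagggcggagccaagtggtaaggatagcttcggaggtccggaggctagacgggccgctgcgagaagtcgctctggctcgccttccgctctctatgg
Ndufv3 promoter, chr17:31519865-31520164, plus strand: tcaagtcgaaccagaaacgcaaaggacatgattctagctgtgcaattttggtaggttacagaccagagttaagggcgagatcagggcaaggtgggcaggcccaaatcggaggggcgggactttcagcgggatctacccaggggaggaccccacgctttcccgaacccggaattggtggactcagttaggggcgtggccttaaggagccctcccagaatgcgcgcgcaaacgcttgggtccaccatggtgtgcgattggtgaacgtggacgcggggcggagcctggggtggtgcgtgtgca
The Sdhd promoter holds the NRF1, GABPA and ERR letters, the last 2 as reverse complements, with first bases at -79, -46 and 37 counted from the gene start. The Atp5g3 promoter holds the reverse complement of the ERR letters at -52 and that of the NRF1 letters at 14, and that of Ndufs7 holds the YY1 letters at 25. The promoters of Cox7a2, the strongest fall among nuclear subunits, and of Ndufv3, called higher, hold none of the 4 motifs. These motifs were chosen as background for the family and carry no test. The NRF1 motif was first searched with a further C at its end and was shortened after those matches had been seen. The longer motif was in 26.4% of the 72 genes and 5.19% of all genes with a promoter entry. It was in 8 of the 20 genes called lower, 11 of the 48 with no call and 0 of the 4 called higher. The Atp5g3 promoter was added to those printed after its ERR match had been seen.

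Complex II, succinate dehydrogenase, is the enzyme shared by the respiratory chain and the citric acid cycle, and 3 of its 4 subunits were lower with ferroptotic medium. Sdha, the flavoprotein that oxidizes succinate, had 9030, 8447 and 8761 normalized counts with ferroptotic medium and 10980, 10991 and 11116 with normal medium. Sdhd, a membrane anchor at the ubiquinone site, had 8348, 8134 and 8225 with ferroptotic medium and 11275, 11065 and 11328 with normal medium. For both genes every library with ferroptotic medium was below every library with normal medium, and the libraries within a group lay close together. Sdhd fell by 0.45 on the log2 scale (SE 0.03, limma adjusted p = 5.40e-06) and Sdha fell by 0.34 (SE 0.03, limma adjusted p = 6.96e-05). Sdhb, the iron-sulphur subunit, had 4004, 4185 and 3790 normalized counts with ferroptotic medium and 4728, 4492 and 4796 with normal medium. Its groups also stayed apart, and it fell by 0.23 (SE 0.05, limma adjusted p = 0.00524). The other membrane anchor, Sdhc, had 5113, 4918 and 4706 normalized counts with ferroptotic medium and 4853, 5054 and 5432 with normal medium. These overlapped, and Sdhc was not called (log2 fold change -0.06, SE 0.05, limma adjusted p = 0.422). Of the 4 assembly factors of this complex, Sdhaf1, which helps the iron-sulphur subunit mature, was called higher (log2 fold change 0.27, SE 0.07, limma adjusted p = 0.0121) and 0 were called lower.

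Complex I, NADH dehydrogenase, had 10 nuclear subunits called lower and 3 called higher of 36, or 27.8% lower and 8.33% higher. The shares to set beside this and the other complexes are those of all tested genes, 22.8% lower and 19.7% higher. Among the 7 nuclear core subunits of complex I 5 were lower and 0 higher. Among its 29 accessory subunits 5 were lower and 3 higher. Ndufs7, which holds the last iron-sulphur cluster before ubiquinone, had 1530, 1442 and 1570 normalized counts with ferroptotic medium and 2044, 2181 and 2256 with normal medium. Its neighbour in the electron path, Ndufs8, had 1733, 1699 and 1613 with ferroptotic medium and 2068, 2186 and 2276 with normal medium. Both genes were lower in all 3 libraries with ferroptotic medium. Ndufs7 fell by 0.51 (SE 0.06, limma adjusted p = 0.000161) and Ndufs8 fell by 0.37 (SE 0.06, limma adjusted p = 0.000790). Smaller falls were called for Ndufs1, the largest core subunit of the NADH-oxidizing arm (log2 fold change -0.15), and for Ndufv2, a core subunit of the same arm (-0.24). The core subunits Ndufs3 (0.09) and Ndufv1 (0.00), the flavin-bearing subunit, were not called.

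Among the accessory subunits of complex I, Ndufa8 (log2 fold change -0.22) and Ndufa9 (-0.20) were called lower with groups that did not overlap. Ndufv3, an accessory subunit of the NADH-oxidizing arm, had 1967, 2212 and 2206 normalized counts with ferroptotic medium and 1812, 1755 and 1836 with normal medium. All its libraries with ferroptotic medium were above those with normal medium, and it rose by 0.24 on the log2 scale (SE 0.06, limma adjusted p = 0.0117). Ndufa13, also known as GRIM-19, rose by 0.18 (limma adjusted p = 0.0140), and Ndufs4, needed for the arm to assemble stably, rose by 0.16 (limma adjusted p = 0.0256). These are the 3 rises of the complex, so that within the NADH-oxidizing arm Ndufv2 was lower, Ndufv3 was higher and Ndufv1 was not called. Ndufb3 (-0.17), Ndufb8 (-0.14) and Ndufa12 (-0.12) were also called lower.

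Several calls among the nuclear subunits of complex I lay near the threshold and were lost when a library was left out, which also leaves fewer samples. With all libraries the limma adjusted p was 0.0353 for Ndufb3, 0.0447 for Ndufb8, 0.0491 for Ndufa12 and 0.0256 for Ndufs4. Ndufb3, Ndufb8 and Ndufa12 lost their calls on leaving out any 1 library except ferroptotic-medium replicate 1 (limma adjusted p from 0.0732 to 0.108 for Ndufb3, 0.0506 to 0.141 for Ndufb8 and 0.103 to 0.135 for Ndufa12), with log2 fold changes in those fits of -0.18 to -0.14 for Ndufb3, -0.17 to -0.11 for Ndufb8 and -0.12 to -0.11 for Ndufa12. Ndufs4 lost its call without ferroptotic-medium replicates 1 (limma adjusted p = 0.0601) or 3 (0.0537) and without normal-medium replicates 2 (0.0870) or 3 (0.0721), with log2 fold changes of 0.14 to 0.16. Ndufs1 lost it without ferroptotic-medium replicate 2 (0.0669) or normal-medium replicate 1 (0.0732), and Ndufv2 without normal-medium replicate 1 (0.0863). In the other direction, 7 uncalled nuclear subunits of the complex gained a call when 1 library was left out. The lower ones were Ndufb10 (log2 fold change -0.39 without normal-medium replicate 1), Ndufa5 (-0.36 without normal-medium replicate 3), Ndufab1 (-0.27 without ferroptotic-medium replicate 3 and -0.26 without normal-medium replicate 2) and Ndufb7 (-0.19 without ferroptotic-medium replicate 1). The higher ones were Ndufa1 (0.27), Ndufa7 (0.18) and Ndufs5 (0.18) without ferroptotic-medium replicate 3, and Ndufa1 also without normal-medium replicate 1 (0.25). Ndufs7, Ndufs8, Ndufa8, Ndufa9, Ndufa13 and Ndufv3 were called in every alternative run.

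Complex III, which passes electrons from ubiquinol to cytochrome c, had 1 call among its 9 nuclear subunits. That gene was Uqcrq, a small subunit near the ubiquinone-binding core, with 7658, 7499 and 7294 normalized counts with ferroptotic medium and 5291, 5016 and 5116 with normal medium. The groups were far apart against the spread within each. Uqcrq rose by 0.54 on the log2 scale (SE 0.04, limma adjusted p = 6.53e-06), the largest rise among the nuclear subunits of complexes I, II, III and V. The other 8 nuclear subunits lay between -0.19 and 0.08, and 7 of the 9 had a negative log2 fold change. Cyc1, the haem-bearing cytochrome c1, had 4947, 5470 and 4910 normalized counts with ferroptotic medium and 5671, 5443 and 6336 with normal medium, with 1 library of the normal group inside the range of the other group. Its log2 fold change of -0.19 (SE 0.07) missed the threshold (limma adjusted p = 0.0521) and passed without ferroptotic-medium replicate 2 (0.0252) or normal-medium replicate 2 (0.0291). Uqcr11 and Uqcrc1, the first a small and the second a large accessory subunit, gained a call as lower without ferroptotic-medium replicate 1 (log2 fold changes -0.24 and -0.13). Cycs, the cytochrome c that carries the electrons onward, was not called (log2 fold change 0.07, SE 0.05, limma adjusted p = 0.283).

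**Figure D2:**
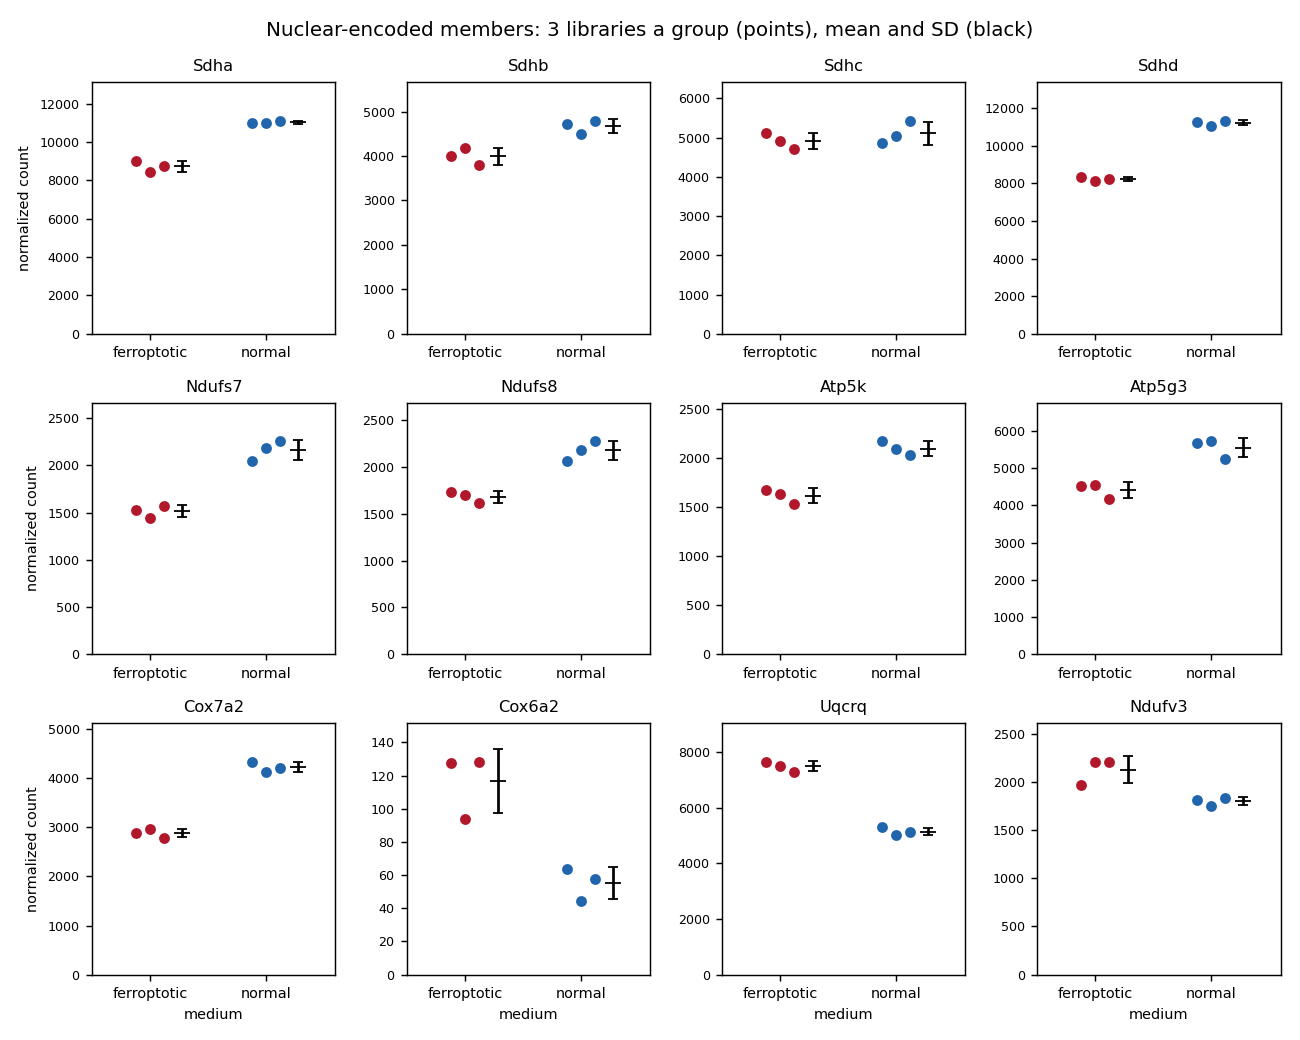
Normalized counts of 12 nuclear-encoded subunits in each library, with ferroptotic medium at left (red) and normal medium at right (blue); each y axis starts at 0 and black marks give the mean and SD over 3 libraries. The groups do not overlap for 11 of the 12 genes, the exception being Sdhc, and Cox6a2, Uqcrq and Ndufv3 are the genes that are higher with ferroptotic medium.

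Complex IV, cytochrome c oxidase, is the complex with the most tissue-dependent subunit isoforms, and calls went both ways among them. Cox7a2, the widely expressed isoform of subunit 7a, had 2892, 2965 and 2791 normalized counts with ferroptotic medium and 4340, 4136 and 4210 with normal medium. It was lower in all 3 libraries and fell by 0.55 on the log2 scale (SE 0.04, limma adjusted p = 1.29e-05). Its muscle counterpart Cox7a1 was low, under 50 normalized counts in every library, and its groups overlapped (log2 fold change -0.07). Cox7a2l, a related protein that links complexes III and IV into supercomplexes, had 7984, 7863 and 5514 normalized counts with ferroptotic medium and 5640, 5213 and 5482 with normal medium. Ferroptotic-medium replicate 3 lay among the normal-medium libraries while the other replicates lay above them, and the gene was not called (0.37, SE 0.16, limma adjusted p = 0.131). Without that library it was 0.54 (limma adjusted p = 8.37e-05).

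Cox6a2, the heart and skeletal muscle isoform of subunit 6a, had 128, 94.1 and 129 normalized counts with ferroptotic medium and 63.7, 44.6 and 57.8 with normal medium. Every library with ferroptotic medium was above every library with normal medium, and Cox6a2 rose by 1.06 on the log2 scale (SE 0.21, limma adjusted p = 0.00370). The authors' deposited table of changed genes gave it 3.87, 2.84 and 3.83 FPKM with ferroptotic medium and 1.96, 1.35 and 1.76 FPKM with normal medium. The isoform found in most tissues, Cox6a1, had a mean of 6564 ± 320 normalized counts with ferroptotic medium and 6435 ± 151 with normal medium (SD, n = 3 each), so that Cox6a2 stayed the minor isoform in counts. Cox4i1 and Cox4i2, the common and the hypoxia-linked isoform of subunit 4, were not called, with log2 fold changes of -0.00 and -0.28, and Cox4i2 was at 48.8 normalized counts or fewer in every library. Ndufa4l2, a hypoxia-linked relative of the subunit encoded by Ndufa4, was the 1 gene below the filter on low counts, at 19.1, 6.14 and 9.97 normalized counts with ferroptotic medium and 0, 0 and 3.92 with normal medium. With a minimum of 1 normalized count it was tested and called higher (limma adjusted p = 0.0290). In GENCODE M21 its exons overlap those of Shmt2 on the opposite strand by 32 bases, and Shmt2 had a mean of 15539 normalized counts over all libraries. Use of strand in counting is not given, and whether reads of Shmt2 enter the counts of Ndufa4l2 was not tested. Ndufa4 itself had a log2 fold change of 0.00 (limma adjusted p = 0.956). Cox5b, a zinc-binding subunit, was called lower (-0.24, SE 0.08, limma adjusted p = 0.0442), a call lost on leaving out any 1 library except normal-medium replicate 1 (limma adjusted p from 0.0549 to 0.136).

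A further gene of complex IV split the libraries without regard to the groups. Cox8a, a small membrane subunit, had 5644, 2207 and 2105 normalized counts with ferroptotic medium and 5802, 2294 and 5665 with normal medium. In each group at least 1 library lay at or below 2294 and at least 1 at or above 5644, and no library lay between. The log2 fold change was -0.51 (SE 0.62, limma adjusted p = 0.575). Cox5a showed a milder version, with 7005, 5608 and 5341 normalized counts with ferroptotic medium and 7040, 5446 and 7328 with normal medium, and the libraries low in Cox8a were the ones low in Cox5a. Cox5a and Ndufb9 are described after their values were seen. In complex I, Ndufb9 had 2587, 1615 and 2251 normalized counts with ferroptotic medium and 2493, 2365 and 2332 with normal medium, with ferroptotic-medium replicate 2 below the other 5 libraries.

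**Figure D3:**
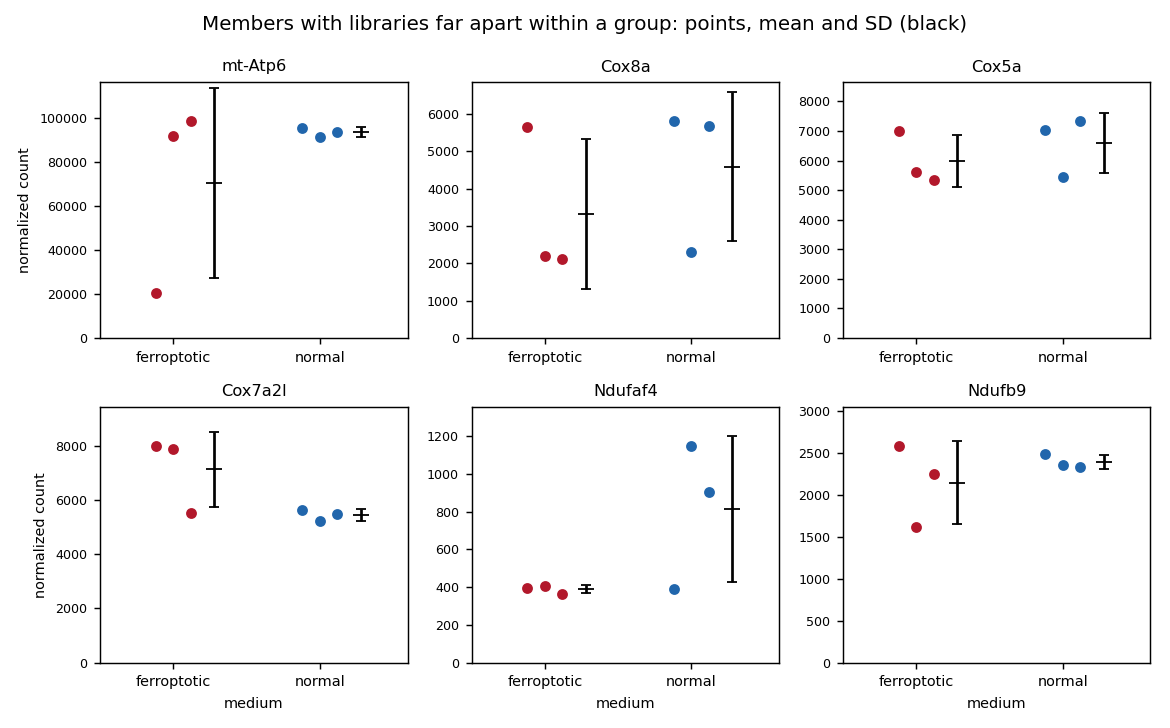
Normalized counts in each library for 6 genes whose libraries lay far apart within a group, with ferroptotic medium at left (red) and normal medium at right (blue); axes start at 0 and black marks give the mean and SD over 3 libraries. The outlying libraries differ from gene to gene: ferroptotic-medium replicate 1 for mt-Atp6, replicate 2 for Ndufb9 and replicate 3 for Cox7a2l, and normal-medium replicate 1 for Ndufaf4.

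Complex V, the ATP synthase, had 7 of its 15 nuclear subunits called lower and 0 higher. The alpha and beta subunits, which form the head of the enzyme, were among them. Atp5a1, the alpha subunit, had 30714, 29569 and 30148 normalized counts with ferroptotic medium and 35536, 35903 and 36371 with normal medium. It was lower in all 3 libraries and fell by 0.25 on the log2 scale (SE 0.03, limma adjusted p = 6.88e-05). Atp5b, the beta subunit, fell by 0.08 (SE 0.02, limma adjusted p = 0.0210), the smallest change called among these genes. That call was lost without ferroptotic-medium replicates 2 (limma adjusted p = 0.0553) or 3 (0.0658) and without normal-medium replicates 1 (0.0543) or 3 (0.0923). Atp5k, the e subunit in the membrane part where synthase dimers form, had 1681, 1640 and 1533 normalized counts with ferroptotic medium and 2176, 2092 and 2029 with normal medium. Its groups did not overlap, and it fell by 0.38 (SE 0.06, limma adjusted p = 0.000746). Atp5o, the stalk subunit that confers oligomycin sensitivity (-0.22), and Atp5c1, the rotating gamma subunit (-0.13), were also called lower. Atp5f1 and Atp5j2, subunits of the outer stalk and of the membrane part, gained a call as lower without normal-medium replicate 2 (log2 fold change -0.20) and without normal-medium replicate 3 (-0.27).

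The proton-carrying ring of the synthase is encoded by 3 genes whose mature proteins are the same, and 2 of them were called lower. Atp5g3 had 4528, 4544 and 4174 normalized counts with ferroptotic medium and 5675, 5726 and 5248 with normal medium. Atp5g2 had 4061, 4058 and 4041 with ferroptotic medium and 4721, 4749 and 4650 with normal medium. In both genes all 3 libraries with ferroptotic medium were the lower ones, and the calls held in every alternative run. Atp5g3 fell by 0.33 (SE 0.05, limma adjusted p = 0.000850) and Atp5g2 fell by 0.22 (SE 0.03, limma adjusted p = 0.00108). Atp5g1 had 3338, 3154 and 2995 normalized counts with ferroptotic medium and 2957, 3143 and 3187 with normal medium, which overlapped (log2 fold change 0.03, SE 0.05, limma adjusted p = 0.698). Whether the 3 genes differ in their response was not tested. Processed pseudogenes almost identical to them also hold reads: the copies of Atp5g2 held 50.6% of its counts and that of Atp5g1 45.5%. With copies added, Atp5g2 fell by 0.20 (limma adjusted p = 0.000909) and Atp5g1 had a log2 fold change of 0.00.

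The 13 genes of the mitochondrial genome are transcribed from long shared precursors, of which 12 lie on one strand and mt-Nd6 on the other. With ferroptotic medium 2 were called lower, mt-Nd1 and mt-Nd2, and 1 higher, mt-Co3. mt-Nd1, a complex I subunit at the ubiquinone tunnel, had 59488, 69298 and 72789 normalized counts with ferroptotic medium and 107832, 95231 and 96818 with normal medium. The groups did not overlap, and mt-Nd1 fell by 0.58 on the log2 scale (SE 0.09, limma adjusted p = 0.00517), a call made in every alternative run. mt-Nd2, a proton-pumping subunit of the same complex, had 32627, 38044 and 40784 normalized counts with ferroptotic medium and 50289, 45828 and 46473 with normal medium, again without overlap. It fell by 0.36 (SE 0.09, limma adjusted p = 0.0238). That call was lost without ferroptotic-medium replicate 2 (limma adjusted p = 0.0590) and without normal-medium replicates 1 (0.0752), 2 (0.0537) or 3 (0.0594).

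These are the first 2 protein-coding genes of the mitochondrial genome, and the RNA genes just before them were low as well. The large ribosomal RNA gene mt-Rnr2 had 7150, 8446 and 8948 normalized counts with ferroptotic medium and 12362, 11728 and 12212 with normal medium, and it fell by 0.57 (SE 0.08, limma adjusted p = 0.00137). The leucine tRNA gene mt-Tl1, which lies between mt-Rnr2 and mt-Nd1, had 437, 580 and 497 with ferroptotic medium and 910, 825 and 817 with normal medium, and it fell by 0.76 (SE 0.11, limma adjusted p = 0.000608). In contrast, the small ribosomal RNA gene mt-Rnr1, which lies before mt-Rnr2, had 12099, 14648 and 14813 with ferroptotic medium and 14358, 13866 and 13835 with normal medium (log2 fold change -0.02, SE 0.08, limma adjusted p = 0.847). The libraries were made with an mRNA kit, so the level of these RNAs is that of the molecules the kit captured. mt-Rnr2, mt-Tl1 and mt-Rnr1 were picked as neighbours after the values of mt-Nd1 were seen. Of the other tRNA genes tested, mt-Ta (log2 fold change -0.42, limma adjusted p = 0.0488) and mt-Tn (-0.38, limma adjusted p = 0.0362) were also called lower without overlap. Their mean counts were small, 99.0 with ferroptotic and 132 with normal medium for mt-Ta, and 153 and 200 for mt-Tn. The remaining tRNA genes tested were not called.

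**Figure D4:**
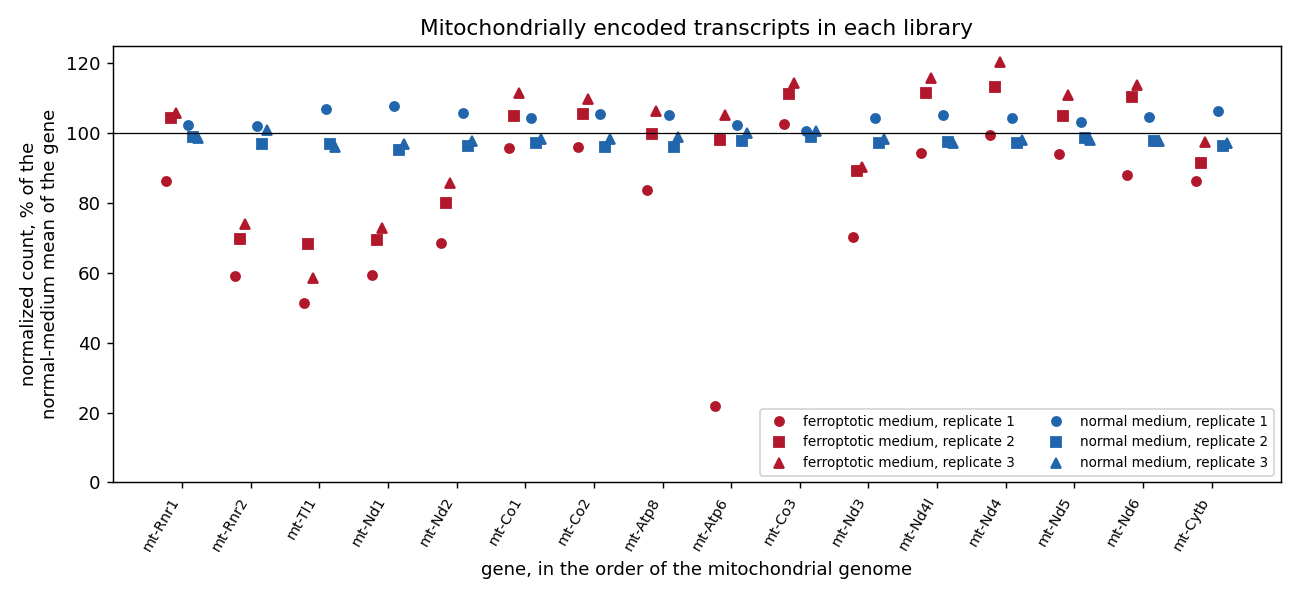
Normalized count in each library as a percentage of the gene's mean over the 3 normal-medium libraries (y axis, from 0), for the mitochondrially encoded subunits and 3 RNA genes in genome order (x axis). Red points (ferroptotic medium, left of each pair) lie below all blue points from mt-Rnr2 to mt-Nd2 and again at mt-Nd3, and overlap or exceed them at most later genes; ferroptotic-medium replicate 1 is at 21.9% for mt-Atp6.

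Further along the genome most genes were not called. mt-Co1, the catalytic subunit of complex IV and the most abundant of the 104 genes, had 564364, 618199 and 657341 normalized counts with ferroptotic medium and 614113, 573299 and 580244 with normal medium, which overlapped (log2 fold change 0.06, limma adjusted p = 0.527). Within the same complex mt-Co2 (0.05) was not called. The complex I subunit genes mt-Nd4l (0.10), mt-Nd4 (0.15), mt-Nd5 (0.04) and mt-Nd6 (0.05) were not called, nor were the ATP synthase gene mt-Atp8 (-0.06) and mt-Cytb (-0.12), the complex III subunit at the end of the strand. mt-Co3, a complex IV subunit, had 79763, 86266 and 88797 normalized counts with ferroptotic medium and 78047, 76675 and 78146 with normal medium. It was higher in all 3 libraries by a narrow margin and rose by 0.13 (SE 0.04, limma adjusted p = 0.0244). That call was lost on leaving out any 1 library except ferroptotic-medium replicate 1 (limma adjusted p from 0.0568 to 0.0810). mt-Nd3 had 2734, 3457 and 3505 normalized counts with ferroptotic medium and 4056, 3773 and 3819 with normal medium, without overlap, but its log2 fold change of -0.27 (SE 0.10) missed the threshold (limma adjusted p = 0.0605).

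Ferroptotic-medium replicate 1 was the lowest of the 3 libraries of its group for all 13 mitochondrially encoded subunits. Without it mt-Nd4 (log2 fold change 0.22), mt-Nd4l (0.19), mt-Nd6 (0.17) and mt-Nd5 (0.11) were called higher and mt-Nd3 (-0.16) lower. Leaving out ferroptotic-medium replicate 3 instead brought mt-Nd3 (-0.34) and mt-Cytb (-0.17) past the threshold as lower. The falls of mt-Nd1 and mt-Nd2 were lower calls in both cases. mt-Atp6, a proton-channel subunit of the ATP synthase, had 20538, 91872 and 98577 normalized counts with ferroptotic medium and 95743, 91385 and 93674 with normal medium. Replicate 1 was thus far below the other 5 libraries, which lay close together, and the gene was not called (-0.71, SE 0.72, limma adjusted p = 0.495). mt-Atp8, whose reading frame overlaps the start of mt-Atp6 by 43 bases in the GENCODE M21 annotation, showed no such drop (26329 in that library, against 31355 and 33347 in the other 2 of its group).

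A limit of these values is that nuclear copies of mitochondrial DNA are listed as genes of their own with almost the same counts. Gm28437, identical to mt-Co3 over 783 bases, held 99.9% of the counts of mt-Co3. Gm28661 held 99.9% of mt-Co2, Gm10222 held 99.6% of mt-Nd4l, Gm28438 held 102% of mt-Nd3, and Gm28439 held 37.0% of mt-Nd4. The sources used here do not say how reads that fit both places were counted. Gm10925, identical to mt-Atp6 over 678 bases, had 84827, 97562 and 104664 normalized counts with ferroptotic medium and 101180, 96412 and 98997 with normal medium, so the copy did not show the drop of mt-Atp6 in replicate 1. No copy in the table matched mt-Nd1, mt-Nd6, mt-Cytb or mt-Atp8. When copies were added to the genes, the number of members called stayed at 7 higher and 25 lower, and all 32 calls were kept. Only 28 members have a copy. The called ones among them are Atp5c1, Atp5g2, Atp5o, Cox5b, Ndufa12, mt-Co3 and mt-Nd2, and the counts of other called members stayed as they were. Copies held 0.771% or less of the counts of Atp5c1, Atp5o and mt-Nd2. For mt-Co3 the copy repeats the gene, so the sum gave the same log2 fold change (0.13). The check therefore cannot show how shared reads were counted.

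As a share of all reads, the 13 mitochondrially encoded genes took 2.65%, 3.08% and 3.20% with ferroptotic medium and 3.24%, 3.01% and 3.02% with normal medium. These overlapped, with means of 2.98% ± 0.29 with ferroptotic medium and 3.09% ± 0.13 with normal medium (SD, n = 3 each). The nuclear genes of the set took 0.869%, 0.847% and 0.812% with ferroptotic medium and 0.924%, 0.901% and 0.921% with normal medium, which did not overlap. Per kilobase of exon, the mean of mt-Co1 was 396959 normalized counts with ferroptotic medium and 381371 with normal medium. That of mt-Nd6, which lies on the other strand, was 28212 with ferroptotic medium and 27082 with normal medium. Counts thus differed widely between these genes. With an mRNA kit they are counts of the molecules captured, and whether counting used strand is not given.

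Assembly and coupling factors of the set gave 1 call each way among 10 tested. Ndufaf2, a chaperone of late complex I assembly, had 343, 392 and 380 normalized counts with ferroptotic medium and 492, 489 and 497 with normal medium. It was lower in all 3 libraries and fell by 0.41 (SE 0.09, limma adjusted p = 0.00560). Ndufaf7, a methyltransferase needed for complex I assembly, had 726, 729 and 807 with ferroptotic medium and 597, 661 and 588 with normal medium. It rose by 0.29 (SE 0.08, limma adjusted p = 0.0205), and the call was lost without ferroptotic-medium replicate 3 (limma adjusted p = 0.0662) or normal-medium replicates 1 (0.0629) or 3 (0.0685). Ndufaf3 (log2 fold change 0.20, limma adjusted p = 0.0542), Ndufaf1 (0.14), Ndufaf5 (0.06), Ndufaf6 (-0.34) and Ndufaf8 (-0.18) were not called. Ndufaf1 gained a call as higher without ferroptotic-medium replicate 1 (0.27), and Ndufaf6 as lower without normal-medium replicate 2 (-0.52).

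Ndufaf4, which works with Ndufaf3 early in complex I assembly, had 395, 407 and 364 normalized counts with ferroptotic medium and 393, 1149 and 903 with normal medium. Normal-medium replicate 1 matched the libraries with ferroptotic medium, and the other 2 libraries of its group were far above. Ndufaf4 was not called (-0.93, SE 0.43, limma adjusted p = 0.154), and without that replicate it was -1.39 (limma adjusted p = 9.89e-05). Atp5s, a coupling factor of the ATP synthase (0.27), and Atp5sl, an assembly factor of complex I (-0.04), were not called.

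Assembly factors with other symbols were described as lists. The shares to set beside these and the following lists are those of all tested genes, 19.7% called higher and 22.8% lower. Of 8 for complex I, 1 was higher and 2 were lower: Timmdc1 (log2 fold change 0.29), Tmem186 (-0.34) and Tmem242 (-0.16). Of 6 for complex III, Ttc19 was higher (0.24) and Uqcc2 lower (-0.35), and of 4 for complex V, Atpaf2 was lower (-0.17). Of 21 for complex IV, 2 were higher and 4 lower. The lower ones were Coa7, an intermembrane-space factor (-0.62), Coa5 (-0.22), Cox15, an enzyme of haem A synthesis (-0.20), and Pet100 (-0.31). Pet117, which was below the filter, had 498, 1.02 and 556 normalized counts with ferroptotic medium and 0.979, 0.841 and 0.979 with normal medium, and is named because its values split the libraries. Timmdc1, Tmem242, Ttc19, Atpaf2, Cox15 and Pet100 each lost the call without at least 2 of the 6 libraries taken out in turn. The limma adjusted p then ran from 0.0537 to 0.0596 for Timmdc1 (ferroptotic-medium replicate 1, normal-medium replicates 1 and 2), and from 0.0513 to 0.0732 for Tmem242 (ferroptotic-medium replicate 2, normal-medium replicates 2 and 3). It was 0.0562 and 0.0677 for Ttc19 (ferroptotic-medium replicate 3, normal-medium replicate 2) and 0.0544 and 0.0528 for Cox15 (normal-medium replicates 1 and 3). It ran from 0.0523 to 0.0736 for Pet100 (ferroptotic-medium replicates 2 and 3, normal-medium replicate 1), and from 0.0513 to 0.102 for Atpaf2 (every library but ferroptotic-medium replicate 1).

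The machinery that copies and expresses mitochondrial DNA had 11 of 29 genes called lower and 4 higher, with a median log2 fold change of -0.10. Mgme1, an exonuclease that finishes mitochondrial DNA ends, had 386, 442 and 402 normalized counts with ferroptotic medium and 811, 731 and 732 with normal medium, and it fell by 0.89 (SE 0.09, limma adjusted p = 6.31e-05). Twnk, the helicase of the mitochondrial replication fork, fell by 0.57 (limma adjusted p = 4.79e-05), and Pnpt1, an RNA-degrading enzyme, fell by 0.55 (limma adjusted p = 0.000183). The pair that binds and stabilizes mitochondrial messenger RNAs was called in opposite directions. Slirp had 1656, 1504 and 1618 normalized counts with ferroptotic medium and 1185, 1070 and 1043 with normal medium, and its partner Lrpprc had 4395, 4426 and 4224 with ferroptotic medium and 5221, 5183 and 5214 with normal medium. Neither gene's groups overlapped. Slirp rose by 0.54 (SE 0.07, limma adjusted p = 0.000339) and Lrpprc fell by 0.26 (SE 0.04, limma adjusted p = 0.000470).

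Among regulators of mitochondrial biogenesis, 5 of 10 tested were called lower and 2 higher, with a median of -0.29. Nrf1, which binds the NRF1 motif, had 593, 716 and 641 normalized counts with ferroptotic medium and 950, 996 and 927 with normal medium, and it fell by 0.56 (SE 0.09, limma adjusted p = 0.000783). Gabpa, the DNA-binding subunit of GABP, had 2511, 2583 and 2761 with ferroptotic medium and 3463, 3472 and 3339 with normal medium, and it fell by 0.39 (SE 0.05, limma adjusted p = 0.000261). Gabpb2, a partner subunit of Gabpa, had 2891, 3074 and 3159 with ferroptotic medium and 5449, 5678 and 5604 with normal medium. It fell by 0.88 (SE 0.04, limma adjusted p = 1.07e-06). Gabpb1, the other partner subunit listed, was not called (log2 fold change -0.06, limma adjusted p = 0.742), and its groups overlapped. The coactivator Ppargc1b fell by 0.91 (limma adjusted p = 4.06e-05) and Yy1 fell by 0.22 (limma adjusted p = 0.00415). Esrra, which encodes ERR alpha, rose by 0.18 (limma adjusted p = 0.0171), a call lost without normal-medium replicate 3 (0.0656). Ppargc1a was below the filter, at 3.19, 3.07 and 6.65 normalized counts with ferroptotic medium and 0 in all 3 libraries with normal medium. In GENCODE M21 the exons of Gabpa and of the synthase subunit gene Atp5j overlap on opposite strands by 397 bases, and the sources used here do not say whether counting used strand.

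Proteins that feed or bypass the chain and its proton gradient gave 7 lower and 3 higher calls among 13 tested. Slc25a5, a main exchanger of ADP for ATP across the inner membrane, had 19219, 19743 and 19297 normalized counts with ferroptotic medium and 23899, 23978 and 24355 with normal medium. It was lower in all 3 libraries and fell by 0.31 (SE 0.03, limma adjusted p = 2.14e-05). Slc25a3, the phosphate carrier, fell by 0.22 (limma adjusted p = 0.000450), and Slc25a4, another ADP/ATP exchanger, fell by 0.19 (limma adjusted p = 0.00112). Dhodh, the pyrimidine-synthesis enzyme that gives electrons to ubiquinone, had 474, 566 and 554 normalized counts with ferroptotic medium and 729, 855 and 831 with normal medium, and fell by 0.60 (SE 0.10, limma adjusted p = 0.00131). On the higher side, Etfdh, which passes electrons from fatty acid oxidation to ubiquinone, rose by 0.25 (limma adjusted p = 0.0134) in the 3 libraries with ferroptotic medium. The 8 lists, with 8, 4, 6, 21, 4, 29, 10 and 13 genes tested, together held 14 higher and 31 lower calls. Across all tested genes 42.5% were called, 19.7% as higher and 22.8% as lower, and whether the lists differ from this was not tested. The count of higher calls in the lists was 8 without ferroptotic-medium replicate 1, 5 without normal-medium replicate 2 and 9 without normal-medium replicate 3.

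The authors' deposited table gave 41 of the 104 genes a false discovery rate below 0.05, 10 of these higher and 31 lower with ferroptotic medium. Of all 26096 genes in the authors' deposited table, 27.3% were below it, 12.9% as higher and 14.3% as lower, a share that takes in genes below the filter used above. The authors' shorter deposited table of changed genes holds 1699 genes and 2 of the 104, Cox6a2 and Ndufa4l2.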

How the data were processed

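RNA was measured in 6 samples, 3 a group. The submitters' processing notes name R 3.4.3, DESeq2 1.18.1, fastp 0.17.1 and HISAT2 2.1.0. The sources used here do not give the counting tool, genome build, annotation or use of strand. The authors deposited log2 values, which equal log2 of a count divided by a size factor, plus 1: with the log undone, 100% of values in each library were whole reads within 0.01. The authors also deposited p-values with false discovery rates for all genes and FPKM values for a shorter table of changed genes, which were used only as copied. The chance that whole reads are rounded estimates was not tested.

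From the log2 values, limma 3.58.1 (trend, robust, two-sided; R 4.3.3) was fitted with medium as the only term to 15597 genes that reached 10 normalized counts in 3 or more libraries. Fold changes are on the log2(normalized count + 1) scale, which understates low genes. The fit was tested on simulated data. Depth was 39624311 to 50557794 reads per library; SEs carry the spread between 3 libraries a group. Replicate pairs differed by more than sampling noise (chi-square per degree of freedom 16.3 to 22.8). Replicate numbers did not pair the samples (correlations of same-numbered deviations 0.01, -0.02 and -0.04).

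GENCODE M21 (all 104 genes matched) gave gene order, exon lengths over all isoforms, overlaps and transcripts, which BLAST 2.17.0 compared to find copies of at least 95% identity over 300 bases or 90% of the transcript. Promoters came from RefSeq, GRCm38.p6. Tables were joined in Python 3.11.15.

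Named genes were every mitochondrially encoded subunit, up to 4 called members each way per complex, isoform sets, complex II, Cyc1, Cycs, the Ndufaf genes and up to 4 called genes of each other list; others were named after their values were seen. A member that enters the counts is not reported here by name. The members and lists were chosen with earlier results of these data known. The alternatives were a replicate block, quantile and TMM scaling, totals without mitochondrially encoded genes, a minimum of 1, a pseudocount of 8, limma-voom on whole reads, each library left out in turn and, chosen after seeing the data, copies added to each gene.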

Additional observations from a re-analysis of the deposited data

How the results depend on the processing

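Of the 32 called members, 20 (4 higher, 16 lower) kept their call in all 14 alternatives and 12 lost it in at least 1, while 26 members that were tested and uncalled gained a call in at least 1. Ndufa4l2, below the filter, was tested and called higher with a minimum of 1. No called member changed sign, and 27 uncalled members did in at least 1 alternative. Higher and lower calls were 9 and 20 with quantile normalization, 8 and 22 with TMM scaling or a minimum of 1, 7 and 30 with totals without mitochondrially encoded genes, and 7 and 28 with limma-voom. With each library left out in turn, 4 to 11 members were higher and 19 to 28 lower, and 5788 to 6149 genes were called against 6629 with all libraries. Leaving out libraries tests fewer samples. The medians then ran from -0.09 to -0.07 for nuclear subunits, -0.11 to -0.0511 for complex I, -0.30 to -0.26 for complex II, -0.11 to -0.07 for complex III, -0.08 to -0.00 for complex IV, -0.12 to -0.09 for complex V, -0.02 to 0.11 for mitochondrially encoded subunits and -0.0282 to 0.0905 for assembly and coupling factors. The difference in the mitochondrial share of reads ran from -0.228 to 0.0473 percentage points. Counts over the 8 other lists, an alternative chosen after seeing the data, ran from 5 to 13 higher and from 25 to 33 lower.

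With quantile normalization the medians moved to -0.0482 for nuclear subunits, -0.0532 for complex I, -0.25 for complex II, -0.0395 for complex III and -0.00121 for complex IV, and mt-Co2 had a log2 fold change of -0.0825 and was called lower (limma adjusted p = 0.0291), against 0.05 and no call in the main test. mt-Cytb was then called lower (-0.45) and mt-Co3 was not called (0.01). The cause was not tested. The replicate numbers share only a number: with the replicate block 7 members were higher and 18 lower, 6226 genes were called, and Ndufa1 gained a call (0.21, limma adjusted p = 0.0347). Low depth touches Cox6a2, Cox7a1, Cox4i2 and Ndufa4l2, the members under 130 normalized counts in every library.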
